A study of Mus musculus and Homo sapiens with 12 samples.

Results

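The 47 genes described here are type I interferon-stimulated genes, a named list of transcripts known to be induced when a cell responds to interferon alpha or beta. Members were chosen by symbol, without regard to measured values, from 55487 genes in the mouse table and 78932 in the human table. A human entry was found for 46 of the 47, all but IRF9, which is not analysed here in the human cells. A mouse entry was found for 40, and OAS1, OASL, IFIT5, IFI6, HERC5, SAMD9 and TRIM22 had no mouse entry of the same symbol. Of the 40, 30 had their symbol in the deposited normalized table and 10 were matched through the mouse gene annotation. Polyadenylated RNA was sequenced in 12 libraries, 3 in each of 4 groups.

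The mouse libraries came from live lineage-negative, Kit-positive (LK) progenitor cells sorted from E13.5 fetal liver (E, embryonic day). Controls (WT) had the genotype Ddx21f/f and knockouts (cKO) Vav-Cre; Ddx21f/f. Both thus carried loxP-flanked Ddx21, and in knockouts the blood-lineage Vav promoter drove Cre. The human libraries came from blood stem cell-like cells made from the H1 embryonic stem cell line, a single line, with the STEMdiff Hematopoietic Kit. Both human groups received lentivirus with an mCherry marker, carrying the control hairpin shNC or the hairpin shDDX21, and CD34+ CD45+ CD43+ shRNA+ cells were sorted 2 days later. The labels name a single hairpin per human group, and only the mouse knockouts carried Cre. Effects of the hairpin itself or of Cre thus cannot be told apart from those of DDX21 loss. DDX21 is a nucleolar RNA helicase. The labels do not say whether libraries of a group are separate embryos or cultures, so the p-values below measure only the spread between these libraries, which may be technical.

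Type I interferon binds the receptor made of IFNAR1 and IFNAR2, whose kinases JAK1 and TYK2 phosphorylate STAT proteins, STAT2 among them. STAT2 and IRF9 are parts of a complex that binds the interferon-stimulated response element (ISRE), a short DNA motif near the start of many interferon-stimulated genes. The products include enzymes and binding proteins that act on viral RNA, membrane proteins that hinder viral entry or release, and the ubiquitin-like protein ISG15 with its ligases and protease. Many of these genes also have a low basal level in blood progenitors without added interferon.

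The promoters of 4 mouse members are printed to show the motif in genes that behaved differently in the knockout. The ISRE was searched as GAAA, any 2 bases and GAAA again, on both strands (TTTC, any 2 bases, TTTC on the other), in RefSeq windows of build GRCm38.p6 that run from 250 bases before to 50 after each start site. Isg15 carries 3 overlapping matches and had too few reads to test, Oas3 and Lgals9 each carry 1 match before the start and rose, and Cmpk2 carries none and fell. Oas3 passed the filter on low counts through the cKO libraries alone, where it was high, so its rise is not counted as support. The 250 bases upstream of each start are given 5′ to 3′ on the gene's strand, with the match in capitals. They lie at chr4:156200819-156201068 (Isg15, minus strand), chr5:120777660-120777909 (Oas3, minus), chr11:78984925-78985174 (Lgals9, minus) and chr12:26468965-26469214 (Cmpk2, plus).
Isg15: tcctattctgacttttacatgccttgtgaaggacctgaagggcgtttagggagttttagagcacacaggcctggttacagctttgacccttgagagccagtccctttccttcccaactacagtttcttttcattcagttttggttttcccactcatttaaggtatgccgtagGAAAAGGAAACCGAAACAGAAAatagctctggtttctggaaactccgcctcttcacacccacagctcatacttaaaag
Oas3: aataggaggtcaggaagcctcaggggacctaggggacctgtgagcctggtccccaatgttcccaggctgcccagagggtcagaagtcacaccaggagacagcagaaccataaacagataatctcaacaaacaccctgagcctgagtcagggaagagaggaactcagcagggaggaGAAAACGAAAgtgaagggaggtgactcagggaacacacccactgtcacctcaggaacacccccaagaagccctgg
Lgals9: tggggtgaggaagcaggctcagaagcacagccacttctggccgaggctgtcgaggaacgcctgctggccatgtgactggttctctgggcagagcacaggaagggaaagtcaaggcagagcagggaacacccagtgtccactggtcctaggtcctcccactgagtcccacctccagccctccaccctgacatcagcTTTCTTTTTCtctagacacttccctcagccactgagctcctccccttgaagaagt
Cmpk2: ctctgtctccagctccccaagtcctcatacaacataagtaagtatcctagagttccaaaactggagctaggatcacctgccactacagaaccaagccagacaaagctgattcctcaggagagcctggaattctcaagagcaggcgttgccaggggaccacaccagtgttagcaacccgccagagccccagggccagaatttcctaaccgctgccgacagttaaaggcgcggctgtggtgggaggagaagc
The printed matches begin 78, 72 and 66 bases before the start of Isg15, 75 before that of Oas3 and 55 before that of Lgals9, where the letters are those of the reverse complement. A further Lgals9 match begins 15 bases after the start, outside the printed bases. A window was present for 31 members, and 12 of them (38.7%) held the motif, against 3.99% of 27025 genes. Among the 31 members with a window, the motif was in 5 of the 11 that rose in the knockout, 0 of the 4 that fell, 3 of the 10 that were not called and 4 of the 6 that were not tested. Oas3 is among the 5 and the 11. Lgals3bp, which had the largest rise, and Ifitm1, Ifi35, Epsti1, Dtx3l and Samd9l rose without the motif in their windows. The 12 were Bst2, Ddx60, Eif2ak2, Ifit1, Ifit3, Ifitm2, Ifitm3, Isg15, Lgals9, Oas3, Rsad2 and Stat2. The gamma-activated site TTCNNNGAA, which is its own reverse complement and is known from the response to interferon gamma, was in 8 of the 31 (25.8%) against 9.55% of genes. A match is a description of letters, and human promoters were not used here.

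Library totals ran from 21116079 to 23898130 counts in the mouse and from 15289510 to 19798608 in the human cells. DDX21 itself stood at 19.7% of control in cKO (log2 fold change -2.35, adjusted p = 5.91e-08) and 14.5% in shDDX21 (-2.78, adjusted p = 1.33e-70). The biological coefficient of variation between libraries was 10.5% in the mouse and 2.23% in the human cells. Mouse libraries expressed Kit at 312 to 368 CPM (counts per 1000000 counts of the library) and Cd34 at 128 to 217, and human libraries expressed CD34 at 245 to 299 and PTPRC, which encodes CD45, at 66.0 to 96.3. All changes below are from edgeR's quasi-likelihood test over all genes of an experiment, genes with a Benjamini-Hochberg adjusted p under 0.05 are termed called, and errors of a log2 fold change are standard errors (SE). The sorting markers themselves changed by this test. Kit was called lower and Cd34 higher in cKO. In shDDX21, CD34 and SPN, which encodes CD43, were called higher and PTPRC lower. Of 10 progenitor markers tested in the mouse, 6 were called higher and 2 lower, against 20.7% and 15.8% of all genes. Their summed level was 1070 to 1089 CPM in WT and 1206 to 1224 in cKO. Of 8 tested in the human cells, 3 were called higher, KIT among them, and 3 lower, against 25.3% and 27.4%. Mouse Ptprc was called higher.

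In the human cells nearly the whole list was higher with the hairpin shDDX21 than with shNC. Of 46 members tested, 42 (91.3%) were called higher and 0 lower, against 25.3% higher and 27.4% lower (52.7% called in all) among all 20188 genes tested. The median log2 fold change of the 46 was 0.77, where the median over all genes was 0.01, and 12 members rose at least 2-fold. In 43 members the 3 shDDX21 libraries all lay above the 3 shNC libraries. The share of all human genes with such a separation was not computed, so this count cannot be set against a background. The 4 members not called were IFITM2 (log2 fold change -0.07), IFITM3 (0.29), TRIM25 (0.03) and TRIM22 (0.03). Each shDDX21 library showed the rise: the median member stood 0.75, 0.77 and 0.76 above the shNC mean on the log2 scale, against 0.01, -0.003 and -0.007 in the shNC libraries. The summed level of the members was 3143 to 3150 CPM in shNC and 4542 to 4550 in shDDX21.

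In the mouse progenitors the list split. Of 40 members with an entry, 33 had enough reads to test, 11 (33.3%) were called higher, 4 (12.1%) lower and 18 not at all. The filter on low counts was passed in both groups by 31 of the 33, of which 10 were called higher and 4 lower; Oas3 passed it through the cKO libraries alone, where it was high. Among all 14918 mouse genes tested 20.7% were called higher and 15.8% lower (36.5% in all), so the share called lower was close to the background and the share called higher above it. When libraries were scaled by total counts alone, 12 members were called higher and 2 lower (3565 and 1612 of all genes, against 3083 and 2360), and with upper-quartile factors 11 and 2. The median log2 fold change of the 33 was 0.12, against 0.0006 over all genes. Groups did not overlap in 21 members (13 with every cKO library above, 8 with every one below). The share of all mouse genes without overlap was not computed, so these counts cannot be set against a background. Among the 28 members with at least 20 counts in every library the medians of the 3 cKO libraries were 0.15, 0.01 and 0.10, and in replicate 2 only 14 of the 28 lay above the WT mean. The summed level was 871 to 878 CPM in WT and 979 to 1003 in cKO. In bulk RNA, a change in the share of cells of a type and a change in RNA per cell cannot be told apart.

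**Figure D1:**
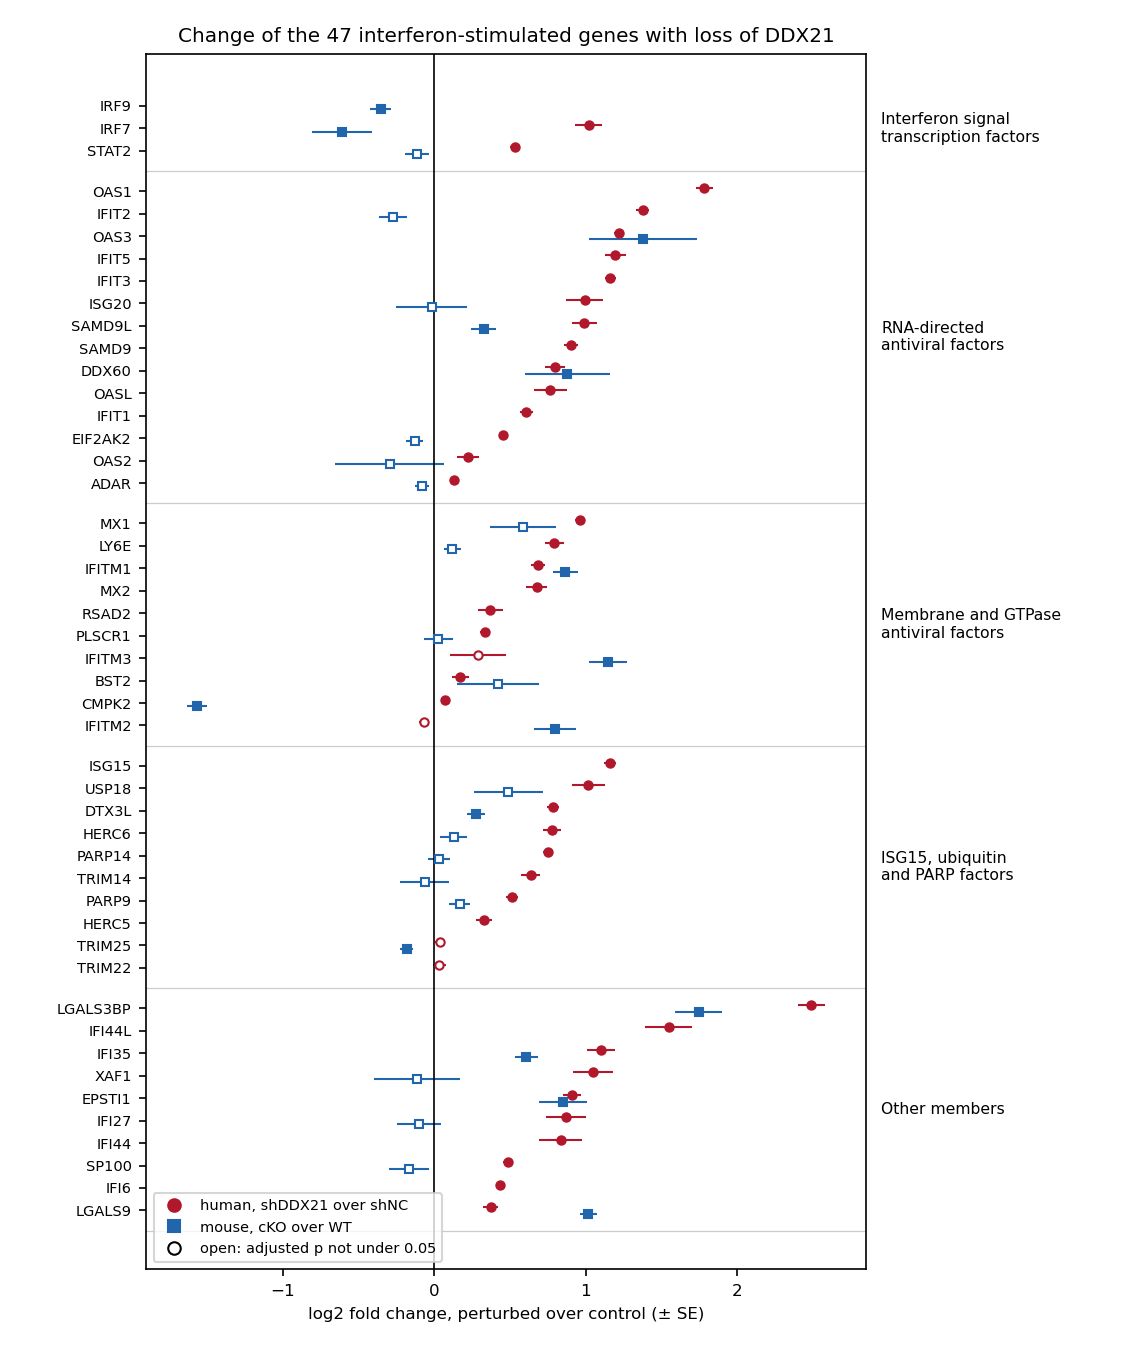
Log2 fold change of each member with loss of DDX21 (x axis, perturbed over control, bars are SE), grouped by role, with circles for human and squares for mouse and open symbols where the adjusted p was not under 0.05. Human points lie to the right of 0 for all members except IFITM2, while mouse points spread from -1.57 for CMPK2 to 1.75 for LGALS3BP; members without a point had no entry or too few reads in that species.

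The mouse and human control groups differed in how strongly they expressed the list. The shNC cells had received lentivirus with the control hairpin, whereas the WT cells were sorted from fetal liver. Whether lentivirus raised the human control level was not tested, so that level cannot be read as a basal level. No human member was under 1 CPM in shNC, and 12 of the 40 mouse members were under 1 CPM in WT. In 34 of the 39 members with both entries the human control mean in CPM was above the mouse control mean. The tables were normalized separately, and CPM takes no account of exon length, which differed (MX1, 17984 bases human and 3785 mouse). By length the order of LGALS3BP, SAMD9L, IFI27 and ISG20 was reversed, with the mouse WT mean above. The shares of all genes for these level counts were not computed. Per kilobase of exon, the highest human members over the 6 libraries were IFI6, ISG15 and IFITM2, and the highest mouse members LGALS9, LY6E and IFITM2. ISG15, the ubiquitin-like modifier (ENSG00000187608, chromosome 1: 1001138 to 1014540 in the human table), had 81.5 ± 3.41 RPKM (counts per kilobase of exon, scaled to library size; SD, n = 3) in shNC, and its mouse counterpart 0.577 ± 0.114 in WT. The 7 mouse members with too few reads were RSAD2, MX2, IFIT1, IFIT3, ISG15, IFI44 and IFI44L. In mouse Isg15 the WT libraries held 7, 9 and 10 counts and the cKO libraries 5, 6 and 13, Rsad2 had 12, 8 and 9 against 27, 10 and 7, and Ifi44l had 0 in all 6 libraries, which allows up to 3 counts in each. That floor covers counting error only. No test was made of the 7.

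Among the transcription factors of the interferon signal, IRF7 and STAT2 rose in the human cells, and IRF7 and IRF9 fell in the mouse. IRF7, the factor that amplifies interferon gene transcription, had 10.5, 9.66 and 10.0 CPM in shNC and 21.2, 18.3 and 21.6 in shDDX21 (log2 fold change 1.02 ± 0.089, adjusted p = 2.13e-16), with no overlap. In the mouse, Irf7 had 2.06, 1.80 and 2.18 CPM in WT and 1.65, 1.13 and 1.18 in cKO (-0.61 ± 0.20, adjusted p = 0.0473). The groups did not overlap, but the mouse call was lost in 11 of 14 alternative analyses, among them leaving out any library other than cKO replicate 1. Mouse Irf9, the DNA-binding partner of STAT2, fell from 35.0, 32.8 and 33.7 to 27.7, 24.5 and 27.3 CPM (-0.35 ± 0.071, adjusted p = 0.00728), with every cKO library below every WT library. Irf9 shares 2.28% of its exon bases with Rnf31 on the same strand. STAT2 rose in the human cells from 128 ± 6.84 to 185 ± 1.67 CPM (SD, n = 3, log2 fold change 0.53), and in the mouse it was 23.8 ± 2.13 in WT and 22.0 ± 0.278 in cKO, which was not called.

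The members that act on RNA rose together in the human cells: 14 of 14 were called higher, with a median log2 fold change of 0.95. Of all human genes tested, 25.3% were called higher. The 2′-5′ oligoadenylate synthetases make the second messenger that activates RNase L. OAS1 stood at 21.1, 18.5 and 22.6 CPM in shNC and at 68.9, 71.4 and 74.5 in shDDX21, a 3.44-fold rise (log2 1.78 ± 0.056, adjusted p = 2.82e-40). OAS3 rose from 76.2, 75.3 and 76.6 CPM to 180, 174 and 177 (1.22 ± 0.033, adjusted p = 2.75e-44). Every shDDX21 library of both genes was above every shNC library. OASL rose by 0.77 and OAS2 by 0.22, and the OAS2 call was lost when shDDX21 replicate 2 was left out or when the change was tested against 1.2-fold.

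The IFIT family includes IFIT1, which binds viral RNA that lacks the cap marks of the host. IFIT2 had 34.7, 39.0 and 38.0 CPM in shNC and 92.9, 98.1 and 97.9 in shDDX21 (1.37 ± 0.045, adjusted p = 3.02e-39). IFIT3 had 66.9, 62.3 and 63.0 CPM in shNC and 139, 146 and 145 in shDDX21 (1.16 ± 0.036, adjusted p = 1.74e-40). Neither gene's groups overlapped, and IFIT5 and IFIT1 rose 2.29-fold and 1.52-fold. EIF2AK2, the kinase PKR that halts translation on double-stranded RNA, rose from 196, 191 and 194 CPM to 263, 267 and 266 (0.45 ± 0.026, adjusted p = 4.55e-25), again without overlap. The others rose by 0.99 (ISG20, an exonuclease, and SAMD9L), 0.90 (SAMD9), 0.80 (DDX60, a helicase) and 0.13 (ADAR, the double-stranded RNA editing enzyme).

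In the mouse, 3 of the 8 tested RNA-directed members were called higher and 0 lower, against 20.7% and 15.8% of all mouse genes. The WT libraries held 7, 9 and 3 Oas3 counts and the cKO libraries 19, 18 and 17, so the groups did not overlap but rested on few reads (1.38 ± 0.36, adjusted p = 0.0211). Since Oas3 entered the test only through the cKO libraries, any tested value of it had to be higher in cKO, and its call is not counted as support. The Oas3 call was lost with DESeq2, without cKO replicate 3 and without WT replicate 1, with adjusted p of 0.0153 to 0.0874 over 13 alternatives. Ddx60 (0.88, adjusted p = 0.0443) and Samd9l (0.33, adjusted p = 0.0222) lost their calls in 9 and 8 of 14 alternatives. For both these include leaving out cKO replicate 2 or 3 or WT replicate 1 or 2, and for Ddx60 also WT replicate 3. Ifit2 had 20.5, 18.7 and 17.9 CPM in WT and 14.7, 15.5 and 17.2 in cKO. All 3 Ifit2 cKO values were below the WT values, and the change missed the threshold (-0.27 ± 0.093, adjusted p = 0.0564). Eif2ak2 had 81.9, 80.3 and 82.0 CPM in WT and 69.1, 77.8 and 76.1 in cKO, also without overlap and not called (-0.13 ± 0.055, adjusted p = 0.103). Adar (-0.08), Oas2 (-0.29) and Isg20 (-0.02) were not called.

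OAS1, OASL and TRIM22 have no mouse entry of that name. A list of 27 mouse members of interferon-inducible families (Oas1, Oasl, Trim, Ifi200, Slfn, Phf11, Ifit and Ifi27 relatives) was described beside them. Of these 12 were tested, 6 were called higher and 3 lower, against 20.7% and 15.8% of all mouse genes. For Oas1a the WT libraries held 44, 32 and 27 counts and the cKO libraries 70, 95 and 71 (1.08, adjusted p = 0.0048), and Oas1b and Oas1c had log2 fold changes of 1.49 and 1.77. Trim30a (0.72), Trim12c (0.43) and Trim12a (0.39) were the others called higher. The DNA-binding family members Ifi204 (-2.29), Ifi209 (-1.91) and Ifi211 (-2.83) were called lower. These 3 had all libraries above the filter's cutoff only in WT, and Oas1b and Oas1c only in cKO, so the filter bears on the direction of these 5. These genes have near-identical copies, so how reads were divided among them is uncertain.

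CMPK2, a nucleotide kinase, was grouped here with the membrane proteins and GTPases. This group held the largest fall of the list, mouse Cmpk2, and 3 mouse increases. Of its 8 tested mouse members, 37.5% were called higher and 12.5% lower, against 20.7% and 15.8% of all mouse genes. Human MX1, a dynamin-like GTPase that traps viral particles, had 156, 153 and 149 CPM in shNC and 304, 302 and 286 in shDDX21 (0.96 ± 0.028, adjusted p = 2.47e-42), with no overlap. In all, 8 of the 10 human members of this group were called higher, against 25.3% of all human genes, with a median of 0.35 over the 10. CMPK2 is among the 8, with a call that was lost in 8 of 14 alternatives. LY6E rose by 0.79, IFITM1 by 0.68, MX2 by 0.67, RSAD2 (viperin) by 0.37, PLSCR1 by 0.33 and BST2 (tetherin) by 0.17, the last call lost without shDDX21 replicate 1. IFITM2, an endosomal entry inhibitor, had 106, 110 and 109 CPM in shNC and 100, 104 and 107 in shDDX21, and the groups overlapped.

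In the mouse the 3 Ifitm genes rose. Ifitm1 had 18.3, 18.3 and 15.6 CPM in WT and 31.8, 31.1 and 32.3 in cKO (0.87 ± 0.081, adjusted p = 0.00021). Ifitm3 had 8.30, 6.38 and 7.84 CPM in WT and 14.9, 17.1 and 17.9 in cKO (1.14 ± 0.12, adjusted p = 0.000448). The cKO values of both were all above the WT values, a rise of 1.82-fold and 2.21-fold. Ifitm2 had 18.7, 16.3 and 18.3 CPM in WT and 33.5, 24.7 and 34.4 in cKO (0.80 ± 0.14, adjusted p = 0.00367), also without overlap, with replicate 2 the lowest of the knockouts. The 3 genes are close copies in 1 cluster on chromosome 7 (140954837 to 141010770 in build GRCm38), and the way multi-mapping reads were counted is not given in the sources used here. The plots of CPM by library show Ifitm1 beside 7 other members.

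**Figure D2:**
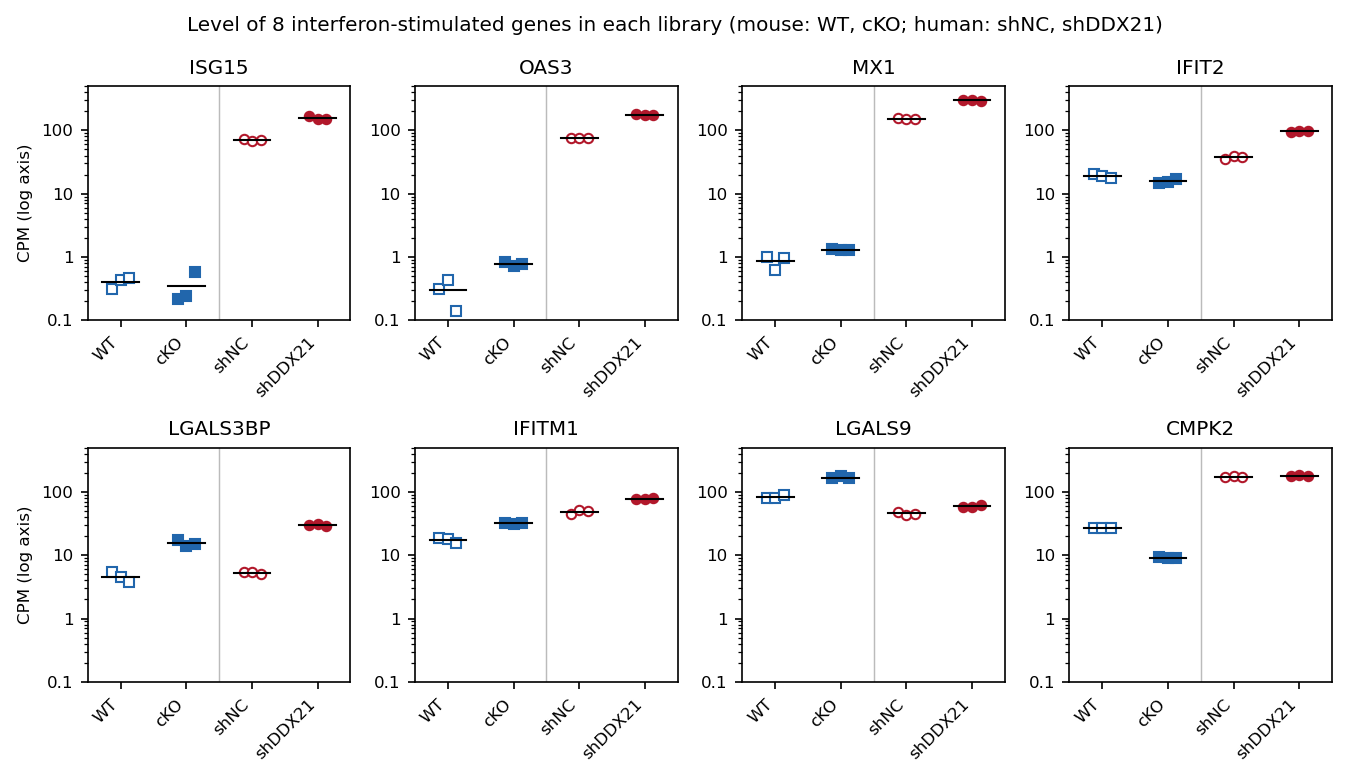
Level of 8 members in each library in CPM on a log axis (squares mouse, circles human, open control, filled perturbed, horizontal bars group means). ISG15, OAS3 and MX1 sit at or below 1.35 CPM in the mouse and at or above 68.5 CPM in the human libraries, the CMPK2 mean falls from 26.8 to 9.07 CPM in the mouse, and LGALS3BP rises in both.

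CMPK2, a mitochondrial nucleotide kinase whose gene lies beside that of viperin, had the smallest p among mouse members. Cmpk2 (ENSMUSG00000020638, chromosome 12: 26469204 to 26479837, GRCm38) had 26.9, 26.6 and 27.1 CPM in WT and 9.41, 8.92 and 8.89 in cKO. The groups were far apart, a 2.96-fold fall (-1.57 ± 0.069, adjusted p = 6.76e-06). Human CMPK2 had 168, 176 and 171 CPM in shNC and 178, 183 and 180 in shDDX21 (0.07 ± 0.029, adjusted p = 0.0346). The human groups did not overlap by a narrow margin, and that call was lost in 8 of 14 alternatives, among them leaving out shDDX21 replicate 2 or 3 or shNC replicate 1 or 3. Human CMPK2 and RSAD2 share 351 exon bases on opposite strands, and whether counting used strand is not given in the sources used here. Mouse Ly6e, a surface protein among the highest members per length, had 135, 137 and 143 CPM in WT and 153, 140 and 158 in cKO, which overlapped and was not called (0.12). Mx1 (0.59), Bst2 (0.42) and Plscr1 (0.03) were not called in the mouse either.

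ISG15 and the enzymes of ubiquitin and ADP-ribose transfer rose in the human cells in 8 of 10 members, with a median of 0.69 over the 10. Among all human genes 25.3% were called higher. ISG15 had 74.0, 68.5 and 69.4 CPM in shNC and 170, 151 and 152 in shDDX21 (1.16 ± 0.038, adjusted p = 2.34e-39). PARP14, an ADP-ribosyltransferase, had 147, 133 and 146 CPM in shNC and 240, 231 and 245 in shDDX21 (0.75 ± 0.030, adjusted p = 5.54e-34). All perturbed libraries of both exceeded all controls. USP18, which removes ISG15 from proteins and dampens receptor signalling, rose by 1.02, DTX3L and HERC6 by 0.78, TRIM14 by 0.64, PARP9 by 0.51 and HERC5, the main human ISG15 ligase, by 0.33. TRIM25, the ubiquitin ligase that acts on RIG-I, had 134 ± 2.40 CPM in shNC and 137 ± 0.343 in shDDX21 and was not called.

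Among the 7 mouse members of this group that were tested, Dtx3l was called higher (0.27, adjusted p = 0.01) and Trim25 lower. These shares, 14.3% each way, were below the 20.7% and 15.8% of all mouse genes. Trim25 had 163, 173 and 162 CPM in WT and 145, 151 and 144 in cKO (-0.18 ± 0.043, adjusted p = 0.015). The Trim25 groups did not overlap, and its call was lost in 5 of 14 alternatives, among them scaling by total counts and by upper quartiles and leaving out cKO replicate 3 or WT replicate 2. Usp18 (0.49), Parp9 (0.17), Herc6 (0.13), Parp14 (0.03) and Trim14 (-0.06) were not called. Reads of Dtx3l and Parp9, which overlap on opposite strands, and of Trim14, which shares 31.3% of its exon bases with Nans on the opposite strand, cannot be told apart without strand.

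Of the remaining members, all 10 rose in the human cells and 4 of the 7 tested rose in the mouse, against 25.3% and 20.7% of all genes. LGALS3BP, a secreted galectin-binding glycoprotein, had the largest rise of the list in both. Human LGALS3BP had 5.50, 5.35 and 5.06 CPM in shNC and 30.2, 30.5 and 28.7 in shDDX21, a 5.61-fold rise (2.49 ± 0.092, adjusted p = 2.86e-36). Mouse Lgals3bp had 5.52, 4.53 and 3.71 CPM in WT and 17.2, 14.1 and 15 in cKO, a 3.35-fold rise (1.75 ± 0.16, adjusted p = 0.000166). In neither species did the groups overlap. Mouse Lgals9, galectin-9 (chromosome 11: 78962974 to 78984946), had 78.8, 80.9 and 88.7 CPM in WT and 164, 175 and 164 in cKO (1.02 ± 0.056, adjusted p = 1.78e-05). The 3 knockout libraries were all above WT, a 2.02-fold rise, and human LGALS9 rose by 0.37.

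IFI35 and EPSTI1 also rose in both. Mouse Ifi35 had 21.4, 21 and 24.1 CPM in WT and 34.6, 33.3 and 33.5 in cKO (0.61 ± 0.074, adjusted p = 0.00074). Mouse Epsti1 had 3.36, 3.65 and 3.53 CPM in WT and 5.62, 5.67 and 7.75 in cKO (0.85 ± 0.16, adjusted p = 0.00521). The knockout libraries of both genes were all above the WT libraries, and the human changes were 1.10 and 0.91. IFI6, a mitochondrial and endoplasmic reticulum protein and the human member with most reads per length, had 210, 223 and 213 CPM in shNC and 291, 291 and 290 in shDDX21 (0.44 ± 0.026, adjusted p = 2.60e-24), with no overlap. IFI44L (1.55), XAF1 (1.05), IFI27 (0.87), IFI44 (0.83) and SP100 (0.48) rose in the human cells. IFI44L was the lowest human member per length, at 0.236 ± 0.0557 RPKM in shNC. In the mouse Xaf1 (-0.11), Ifi27 (-0.10) and Sp100 (-0.16) were not called.

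Whether a member changed differently in the 2 experiments was tested as an interaction over the 10301 genes matched by symbol and tested in both. Species, cell source and the way DDX21 was lost differ together between the experiments and cannot be told apart. Of 32 members tested, 24 differed: the mouse change was below the human change in 21 and above it in 3, against 20.4% below and 35.9% above (56.3% in all) among all matched genes. The median difference, mouse minus human, was -0.52 for the members and 0.09 for all matched genes. CMPK2 (-1.63 ± 0.052, adjusted p = 6.41e-10), IFIT2 (-1.64 ± 0.102, adjusted p = 1.11e-07) and EIF2AK2 (-0.58 ± 0.056, adjusted p = 4.16e-06) had the smallest p. LGALS9 (0.64), IFITM2 (0.86) and IFITM3 (0.86) were the 3 with the larger mouse change.

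By their own calls, 9 members rose in both experiments: OAS3, IFITM1, IFI35, DDX60, SAMD9L, DTX3L, EPSTI1, LGALS3BP and LGALS9, or 8 without OAS3. IRF7 and CMPK2 were called higher in the human and lower in the mouse cells, 18 were called higher in the human cells and not called in the mouse, and IFITM2, IFITM3 and TRIM25 were called only in the mouse. A difference between the experiments was not shown for OAS3, DDX60, EPSTI1, IFITM1, MX1, BST2, USP18 and OAS2. For OAS3 the difference was 0.16 ± 0.235, for DDX60 0.08 ± 0.225, for EPSTI1 -0.06 ± 0.163 and for IFITM1 0.18 ± 0.10, and a p above the threshold does not show that these members changed alike. Across the 32 members the 2 sets of log2 fold changes were correlated at 0.405 (Pearson) and 0.217 (Spearman), a description over genes that share libraries. The sign was the same in 18 and opposite in 14. Over all genes tested, 25.3% were called higher in the human and 20.7% in the mouse cells. The shares of all matched genes with these joint calls and signs were not computed, so the counts here cannot be set against a background.

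**Figure D3:**
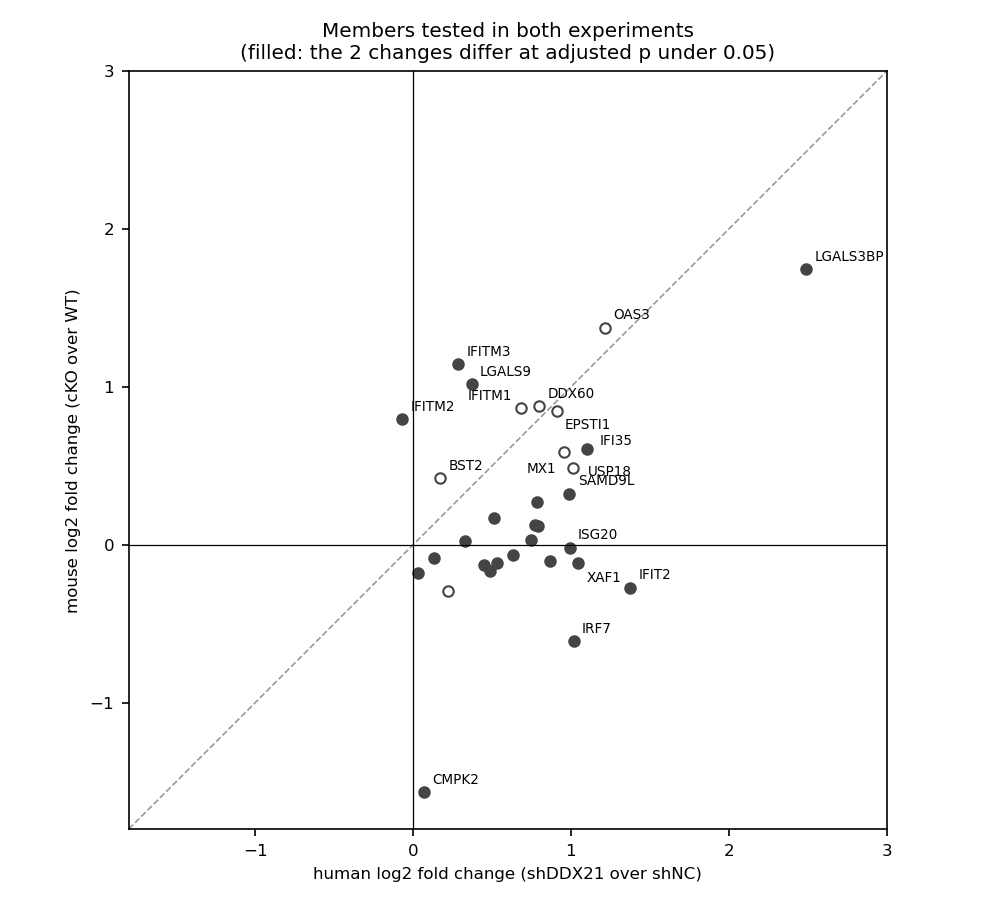
Mouse against human log2 fold change of the 32 members tested in both, with the dashed line marking equal change and filled points marking members whose changes differ at an adjusted p under 0.05. Most filled points lie below the line, LGALS9, IFITM2 and IFITM3 above it, and OAS3, DDX60, EPSTI1 and IFITM1 close to it; members crowded near the horizontal axis carry no label.

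The genes that carry the signal were described from a list of 14 receptor, kinase, STAT, IRF and inhibitor genes. The receptor genes did not rise. IFNAR1 fell in the human cells (-0.31, adjusted p = 3.02e-09) and was not called in the mouse (-0.13), and IFNAR2 fell by 0.31 in both. JAK1 rose by 0.25 in the human and 0.29 in the mouse cells, and TYK2 was not called in either (0.07 and -0.11).

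Of this list 3 of 14 were called higher and 6 lower in the human cells, and 5 of 13 higher and 3 lower in the mouse, against 25.3% and 27.4% of all human and 20.7% and 15.8% of all mouse genes. IRF1, a factor induced by interferons, rose in the mouse (0.68, adjusted p = 0.00178) and was not called in the human cells (0.13). SOCS3, an inhibitor of cytokine receptors, was called lower in the human cells (-1.45) and higher in the mouse (0.90, with all libraries above the filter's cutoff only in cKO), and STAT3 likewise (-0.93 and 0.16). IRF8, a factor of monocyte and dendritic cell development, fell in both (-1.22 human, -1.86 mouse).

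**Figure D4:**
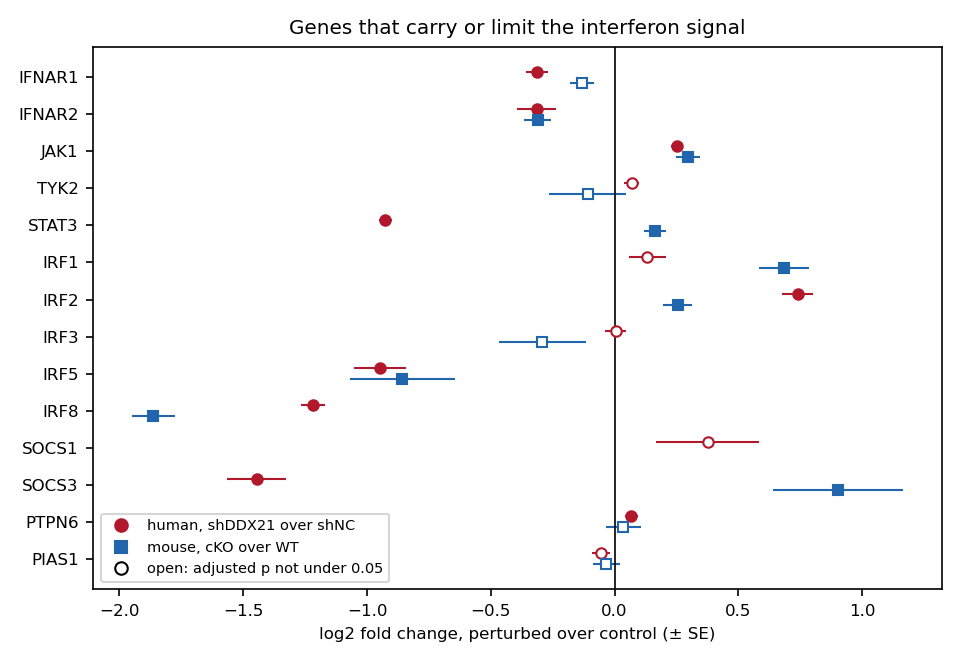
Log2 fold change of the 14 signal genes with loss of DDX21 (x axis, perturbed over control, bars are SE; circles human, squares mouse, open where the adjusted p was not under 0.05). The receptor genes IFNAR1 and IFNAR2 lie to the left of 0, and SOCS3 and STAT3 lie on opposite sides of 0 in the 2 experiments.

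The interferon genes themselves gave almost no reads in the mouse libraries. Of 21 ligand genes matched, 18 had 0 counts in all 6 libraries and none passed 3 counts in any library, which is the floor used here. The 3 WT libraries gave 2, 0 and 3 reads of Ifnk and each cKO library gave 3, Ifnb1 had 2 counts in cKO replicate 1 alone, and Ifnab had 1 in cKO replicates 1 and 3. Human ligand genes are not analysed here. Of the nucleic acid sensors that lie upstream of interferon, RIGI rose in both experiments (1.24 human, 0.90 mouse) and so did IFIH1 (0.46 and 0.41) and STING1 (0.13 and 0.34). The human STING1 call was lost in 8 of 14 alternatives, among them without shDDX21 replicate 2 or 3 or shNC replicate 1 or 2, and the mouse one without WT replicate 2. AIM2 fell in the human (-0.53) and rose in the mouse cells (0.55), and ZNFX1 rose in the human (0.71) and fell in the mouse cells (-0.41). In all, 6 of 11 sensors tested were called higher and 3 lower in the human cells, and 4 of 11 higher and 2 lower in the mouse, with the shares called lower close to the 27.4% and 15.8% over all genes. Of genes better known as targets of interferon gamma, 1 of 10 tested was called higher (GBP4, 0.80) and 5 lower in the human cells, and 5 of 12 higher and 1 lower in the mouse, beside the same shares over all genes (25.3% and 27.4%, 20.7% and 15.8%).

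Markers of other cell types moved with DDX21 loss beside the members, and their part in the member changes was not tested. The calls below stand beside 20.7% higher and 15.8% lower among all mouse genes, and 25.3% and 27.4% among all human genes. Of the macrophage list, 4 mouse genes were tested, Csf1r and Adgre1 were called lower and Cd68 higher, and the summed level of the list was 37.8 to 41.0 CPM in WT and 14.5 to 17.3 in cKO. The defining macrophage markers C1qc had 0 counts and C1qa, C1qb and Timd4 at most 1 count in any mouse library, while Mrc1 had 6 to 8 counts in WT and 8 to 11 in cKO and Cd163 had 1, 0 and 0 against 5, 8 and 1. Of the plasmacytoid dendritic cell list, a cell type known for interferon output, 2 mouse genes were called higher (Spib 1.54, Pacsin1 0.97) and 2 lower (Siglech -3.09, which passed the filter through WT alone, and Ccr9 -0.61), and the sum was 91.3 to 96.6 CPM in WT and 95.5 to 96.5 in cKO. Of the granulocyte and monocyte list, 9 of 12 mouse genes (sums of 721 to 978 and 387 to 635 CPM) and 9 of 9 human genes (482 to 496 and 245.3 to 249.1 CPM) were called lower. The hepatocyte list summed to 14.8 to 16.7 CPM in WT and 50.7 to 54.8 in cKO. Of its 7 tested genes, Afp, Hnf4a and Trf passed the filter in both groups and were called higher, the other 4 had all libraries above its cutoff only in cKO, and Apoc3 was at 0. Of 9 endothelial markers tested in the mouse 5 were called higher, from 81.4 to 102 CPM to 122 to 142. The mouse megakaryocyte sum was 114 to 133 CPM in WT and 192 to 265 in cKO (4 of 7 higher), and the erythroid sum 1890 to 1984 and 1279 to 1396. In the human cells, 4 of 6 macrophage genes were called lower and 1 higher (sums of 488 to 504 CPM in shNC and 496 to 504 in shDDX21). Human endothelial markers summed to 1943 to 1997 and 1646 to 1668 (4 of 10 higher, 5 lower), lymphoid markers to 49.3 to 51.6 and 23.0 to 26.8, erythroid markers to 1779 to 1799 and 1453 to 1466 and megakaryocyte markers to 1618 to 1695 and 1896 to 1929.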

How the data were processed

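Counts of reads per gene, the unit tested here, were taken as deposited by the authors in 1 raw table per experiment. The submitters' processing notes name STAR, featureCounts, DESeq2, mm10 and hg38 without roles, and the strand setting is not given in the sources used here. A second deposited table gives normalized signal values, which equalled raw counts over a single library constant (largest relative deviation 4.97e-10), and log2 columns over the control mean, per the file headers. Those tables served for symbols. Testing used edgeR 4.0.16 on R 4.3.3 (filterByExpr, TMM, glmQLFit, glmQLFTest, two-sided, Benjamini-Hochberg over all genes), and the difference between experiments as an interaction over all 12 libraries. CPM and RPKM were computed from the counts with TMM-scaled library sizes and the deposited exon lengths. The floor was 3 counts. DESeq2 1.42.0, other scalings, filters and a test against 1.2-fold, a replicate block and leaving out each library were alternatives. Scripts were tested on simulated data. Libraries of a group differed by more than sampling noise. Values per library are given for the 8 members with the smallest p, the 3 highest per length, those called lower and the 3 with the smallest interaction p; some genes of other lists, human IRF7 and mouse Oas3, Isg15, Rsad2 and Ifi44l were given after their values were seen. Members and lists were chosen with earlier results of these data known. A further gene of the signal list is not reported here.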

Additional observations from a re-analysis of the deposited data

Results flagged for a closer look

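The change with loss of DDX21 differed between the mouse and the human cells in 24 of 32 members, by a test of the difference itself. Among all 10301 matched genes 56.3% differed, 20.4% with the mouse change below the human change and 35.9% with it above. The values that follow are mouse minus human log2 fold changes. The mouse change was the larger for LGALS9 (0.64), IFITM2 (0.86) and IFITM3 (0.86). It was lower by more than 1 for IFIT2 (-1.64), CMPK2 (-1.63), IRF7 (-1.63), XAF1 (-1.16) and ISG20 (-1.01). For the RNA-directed and membrane members it was also lower for EIF2AK2 (-0.58), SAMD9L (-0.67), ADAR (-0.22), LY6E (-0.67) and PLSCR1 (-0.30). For the ISG15 and ubiquitin group the differences were -0.72 for PARP14, -0.51 for DTX3L, -0.65 for HERC6, -0.35 for PARP9, -0.22 for TRIM25 and -0.70 for TRIM14. For STAT2 the difference was -0.64, for SP100 -0.65, for IFI35 -0.50, for IFI27 -0.97 and for LGALS3BP -0.74.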

How the results depend on the processing

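Of the mouse members, 15 were called, and 9 (8 higher, 1 lower) when tested against a change of 1.2-fold. That test called 1848 of all 14918 genes higher and 781 lower, where the main test called 3083 and 2360. Leaving out 1 library at a time gave 10 to 15 calls, 10 of them without cKO replicate 3, with 8 higher and 2 lower. Without cKO replicate 3, 2349 of all 15331 genes were called higher and 1368 lower. Total-count scaling gave 12 higher and 2 lower and upper-quartile scaling 11 and 2, against 11 and 4, and DESeq2 gave 8 and 3. Over all 14918 genes these 3 settings gave 3565 and 1612, 3126 and 2028, and 2318 and 2176. The human count was 36 to 44 over all alternatives and 41 to 42 with 1 library left out, and the interaction count 23 to 26, also with 1 library left out. Of all 20188 human genes, the test against 1.2-fold called 2632 higher and 3054 lower, and upper-quartile scaling 6255 and 4635. Of all 10301 matched genes, upper-quartile scaling called 3241 with the mouse change above and 2425 below, and total counts 4333 and 1566. TYK2 in the mouse, not called, was -0.24 to 0.048 with 1 library left out, the second without cKO replicate 2, and IFITM2 in the human cells turned to 0.0028 with upper-quartile factors. Same-numbered libraries did not deviate together in every pair (r of 0.534, -0.33 and 0.06 in the mouse, where WT 3 and cKO 2 reached 0.618, and -0.02, -0.001 and 0.002 in the human cells), so the numbers were not taken to pair them. A replicate block gave 12 mouse, 42 human and 25 interaction calls. Over all genes it gave 2810 higher and 2356 lower in the mouse and 5082 and 5519 in the human cells. Over all matched genes it gave 3576 with the mouse change above and 2142 below. Low expression limits the mouse list: 12 members had under 1 CPM in WT.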
